A study of Mus musculus with 4 samples.

Results

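The genes described here are 76 unnamed gene models of mouse skin epidermis that were far higher or far lower in LDB2-/- mice than in wild type mice. A model counts as unnamed when its symbol ends in Rik or is Gm followed by a number. It was taken when both libraries of one genotype had at least 2 FPKM (fragments of RNA scaled to transcript length and library size) and the lower of them was at least 3 times the higher library of the other genotype. Of 1426 unnamed models among 17721 genes of the deposited table, 42 met the rule as higher in LDB2-/- and 34 as lower. Since the rule used the FPKM of all 4 libraries, the differences of these models are given as a description, without a test. The same rule took 3.26% of all genes of the table as higher and 5.23% as lower, which is 5.12% and 8.23% of the 11261 genes with 2 FPKM or more in both libraries of a genotype. Of the 356 unnamed models at that level, the 42 were 11.8% and the 34 were 9.55%. Outside the spans described below the higher share was 15 of 329 (4.56%). Those spans were drawn around models that met the rule, so leaving them out lowers this share by construction. The shares of all genes keep the genes of the spans.

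Back skin came from C57BL/6 mice at postnatal day 63, 2 libraries from LDB2-/- mice and 2 from wild type (WT) mice, and was treated with dispase, an enzyme that frees epidermis from dermis, before total RNA was taken. LDB2 bridges transcription factors of the LIM class to their partners at DNA. The labels name neither the deleted exons nor any other allele or agent, and do not say whether each library came from its own animal, so the p-values below measure only the spread between these libraries. Log2 fold changes are of LDB2-/- over WT, from edgeR on the deposited counts.

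A Rik symbol marks a gene known first from a full-length cDNA clone of the RIKEN collection, and a Gm symbol marks a gene predicted from the genome sequence. Such symbols stay until a function or a family is assigned, so they gather protein-coding genes of large families, non-coding RNAs and pseudogenes. Keratin-associated proteins, which recur below, are small matrix proteins that are cross-linked to the hair keratins in the shaft of a growing hair. Their genes have a single exon and lie side by side in clusters.

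Of the 42 higher models, 27 lay in 3 chromosomal spans together with named keratin-associated genes (Krtap). The span on chromosome 10 ran from 77689957 to 77862638 (mm10, 172.7 kb) and held 10 of them. The span on chromosome 11 ran from 99602646 to 99915671 (313.0 kb) with 13, and the span on chromosome 16 ran from 88707171 to 89064002 (356.8 kb) with 4. In RefSeq all 27 were protein coding, and all 27 had a single exon in the annotation. The promoters below show a feature that the rule did not use, a TATA box just before the start site. Each is 300 bases from RefSeq on GRCm38.p6 (the assembly of mm10), from 250 bases before the start of the gene to 50 bases after it, 5′ to 3′ on the strand of the gene, with each TATAAA on that strand in capitals. Gm10229 (chr16:89015027-89015326, plus strand), Gm11938 (chr11:99603259-99603558, minus strand) and Gm10100 (chr10:77726202-77726501, plus strand) were the models with the highest level of each span. Gm11554 (chr11:99804397-99804696, minus strand) is shown because its window was identical, letter for letter, to that of Gm11569 in the same span.
Gm10229: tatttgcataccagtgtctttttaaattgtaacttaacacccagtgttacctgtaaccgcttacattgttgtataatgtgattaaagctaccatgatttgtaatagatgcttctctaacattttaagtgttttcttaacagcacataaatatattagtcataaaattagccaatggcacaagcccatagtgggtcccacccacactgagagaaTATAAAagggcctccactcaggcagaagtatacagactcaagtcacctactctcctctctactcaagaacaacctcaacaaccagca
Gm11938: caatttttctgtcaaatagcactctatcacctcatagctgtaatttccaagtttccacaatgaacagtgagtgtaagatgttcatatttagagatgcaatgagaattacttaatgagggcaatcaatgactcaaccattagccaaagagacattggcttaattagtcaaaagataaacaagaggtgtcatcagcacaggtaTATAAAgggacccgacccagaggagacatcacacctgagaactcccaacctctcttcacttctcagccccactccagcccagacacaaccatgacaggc
Gm10100: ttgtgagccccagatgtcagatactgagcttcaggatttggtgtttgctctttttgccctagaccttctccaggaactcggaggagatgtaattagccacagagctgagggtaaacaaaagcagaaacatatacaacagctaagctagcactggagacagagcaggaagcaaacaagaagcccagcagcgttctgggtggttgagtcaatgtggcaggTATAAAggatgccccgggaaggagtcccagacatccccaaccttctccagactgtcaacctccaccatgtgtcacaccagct
Gm11554: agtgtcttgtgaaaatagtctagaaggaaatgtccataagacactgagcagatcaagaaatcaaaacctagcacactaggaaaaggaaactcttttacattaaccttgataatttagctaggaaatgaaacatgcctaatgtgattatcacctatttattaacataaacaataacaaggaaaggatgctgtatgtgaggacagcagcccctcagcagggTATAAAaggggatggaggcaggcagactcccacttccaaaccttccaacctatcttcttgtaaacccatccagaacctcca

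In these 4 windows the TATAAA began 37, 49, 32 and 31 bases before the start site. A promoter entry existed for 24 of the 27 span models, and 20 of the 24 (83.3%) held TATAAA on the gene strand beginning 60 to 15 bases before the start. Among named keratin-associated genes the share was 35 of 49 (71.4%), and among all 27025 genes with an entry it was 2.94%. Of the higher models outside the spans, 0 of 10 with an entry held the box in that window, and of the lower models 2 of 23 (8.70%) did. Anywhere in the 300 bases and on either strand, TATAAA stood in 21 of 24 span promoters (87.5%), against 14.2% of all promoters. Matches of TAATTA, the core read by many homeodomain proteins, stood in 6 of 24 (25.0%), against 5.31% of all promoters. TAATTA also stood in 3 of 23 lower models (13.0%) and 10 of 49 named keratin-associated genes (20.4%), and in 0 of 10 other higher models. CTTTGA, a core of TCF/LEF sites, stood in 4 of 24 (16.7%), against 16.2%, and TGANTCA, the AP-1 site, in 4 of 24 (16.7%), against 7.93%. The AP-1 site also stood in 2 of 10 other higher models, 4 of 23 lower models (17.4%) and 10 of 49 named keratin-associated genes (20.4%). Matches were counted on both strands, each motif apart from the others, so that matches could overlap. Over the whole window most pairs were not alike: 3 of 105 pairs within a span were over 80% identical. The median pair within a span was 49.3% identical, against 48.3% for pairs from different spans. Identity over the whole window can miss a shared stretch at the box. From TATAAA to the end of the window, 1110025L11Rik and Gm10228 (67.3% identical over the window) matched letter for letter, as did Gm11559 and Gm11567 (65.3%). The boxes counted above are thus not all separate occurrences.

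**Figure D1:**
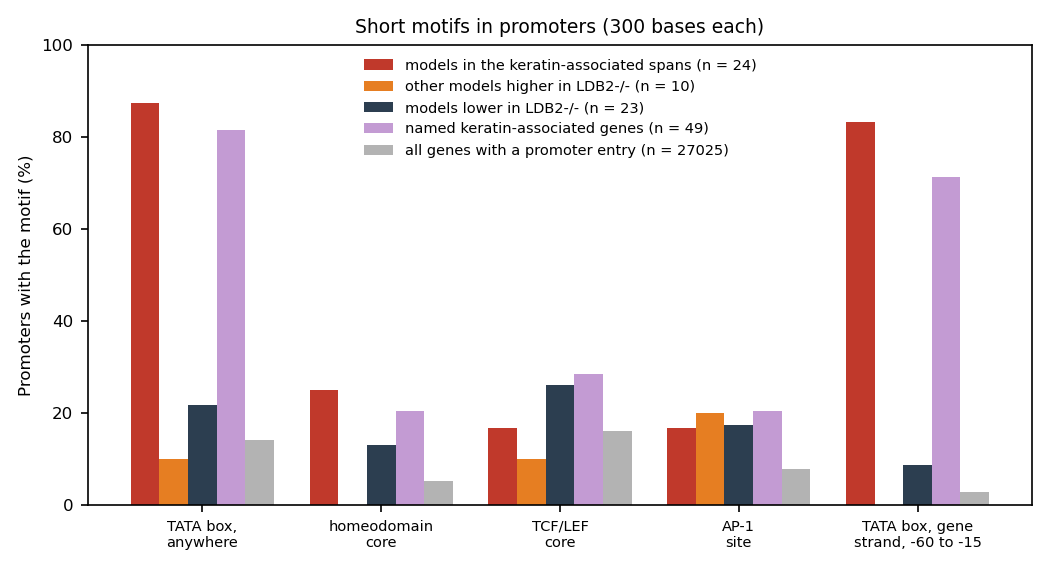
Share of promoters (percent, vertical axis) that hold each motif, for the models in the keratin-associated spans, the other higher models, the lower models, the named keratin-associated genes and all genes with a promoter entry. TATAAA stood in 87.5% of the span promoters and in 14.2% of all promoters.

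The span models differed widely in level in LDB2-/-, and most were close to silent in WT. In LDB2-/-, 5 of the 27 had 100 FPKM or more in both libraries. The median over the span models of the lower LDB2-/- library was 14.6 FPKM. Their summed level was 1708 and 1650.4 FPKM in LDB2-/- libraries 1 and 2, against 6.65 and 25.3 FPKM in WT libraries 1 and 2. In 20 of the 27, both WT libraries were under 0.5 FPKM. The lower LDB2-/- library exceeded the higher WT library 27.2-fold to 303-fold, with a median of 74.5-fold over the 26 models with a WT count. Their log2 fold changes ran between 6.05 and 9.52 for those 26, and the median of all 27 was 7.30 with Gm11569, which had no WT count, at its bound (7.34 as fitted). On the authors' normalized log2 values the same differences were smaller, between 1.36 and 4.54 with a median of 3.07.

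Gm10229, on chromosome 16 (89015277 to 89015846), was the most abundant of all higher models. It had 557 and 529.9 FPKM in LDB2-/- libraries 1 and 2, against 2.60 and 12.3 FPKM in WT libraries 1 and 2, a log2 fold change of 6.53 (SE 0.74). Its neighbour Gm10228 had 184 and 173 FPKM in LDB2-/-, against 1.47 and 2.64 FPKM in WT (6.76, SE 0.28). At the end of that span, 1110025L11Rik had 122 and 93.3 FPKM in LDB2-/-, against 1.01 and 1.24 FPKM in WT (6.89, SE 0.21). The 2 LDB2-/- libraries stood above both WT libraries in each case, as the rule requires. The last model of the chromosome 16 span, 2310061N02Rik, lay 308 kb from Gm10229 at the other end and had 10.02 and 12.99 FPKM in LDB2-/-, against 0.0370 and 0.130 FPKM in WT.

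On chromosome 11, Gm11938 (99602646 to 99603308) led with 188 and 196 FPKM in LDB2-/-, against 0.183 and 0.989 FPKM in WT, a log2 fold change of 8.68 (SE 0.57). The adjoining Gm11937 had 142 and 156 FPKM in LDB2-/-, against 0.307 and 2.25 FPKM in WT (7.19, SE 0.69). Its transcript was 99.0% identical to that of Gm11938 over its whole length, so reads of this pair may have been shared out between them. By its best-scoring match to another gene, 13 of the 27 span models had a near copy (at least 95% identity over 50% or more of the transcript). Gm10229, Gm10228, 1110025L11Rik, Gm11938 and Gm11562 were among them, and the separate levels of all 13 are uncertain for the same reason. Only the best match was judged, so such counts are minimums. The tally was 15 of all 42 higher models and 3 of the 34 lower models. Next along the span, Gm11562 had 139.7 and 161 FPKM in LDB2-/-, against 0.102 and 1.44 FPKM in WT (7.96, SE 0.86). Gm11565, at the far end, had 56.9 and 59.5 FPKM in LDB2-/-, against 0.222 and 1.09 FPKM in WT (6.80, SE 0.60), and Gm11563 had 48.9 and 35.1 FPKM in LDB2-/-, against 0.173 and 0.241 FPKM in WT (7.89, SE 0.28). WT library 2 was the higher WT library for each of these 5 genes, and it stayed below every LDB2-/- library, as the rule requires. The other 8 models of this span, Gm11567, Gm11559, Gm11595, Gm11568, Gm11596, Gm11554, Gm11564 and Gm11569, had between 2.36 and 27.9 FPKM in LDB2-/- and at most 0.392 FPKM in WT. Gm11569 had 2.36 and 3.17 FPKM in LDB2-/- and no count in WT, at least 102-fold higher when set against 3 counts over the WT group. It shares its promoter window with Gm11554, and their transcripts were 96.5% identical, so the split of reads between them is uncertain.

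The 10 models on chromosome 10 were weaker and more alike. In order of level they were Gm10100, Gm3285, Gm3238, Gm2696, Gm10272, Gm10024, Gm10318, Gm19402, Gm10142 and Gm19668, and RefSeq gives Gm10272 the synonym Krtap12-4. They had between 5.43 and 26.4 FPKM in LDB2-/- and at most 0.407 FPKM in WT. Gm10100 had 25.8 and 26.4 FPKM in LDB2-/-, against 0.178 and 0.188 FPKM in WT (log2 fold change 7.34, SE 0.34). Its best match, Gm10142, was 94.5% identical over the whole transcript, just under the cutoff for a near copy. The Gm10272 transcript was 95.1% identical to Gm10100 over 87.4% of its length. Reads may thus have been shared among these models. All 10 lie within Tspear, a gene linked in people to tooth and hair follicle development. Tspear itself had 1.10 and 1.23 FPKM in LDB2-/-, against 1.26 and 0.989 FPKM in WT, and was not called (log2 fold change 0.38, SE 0.30, edgeR adjusted p = 0.321). The difference between Tspear and the small genes inside it was not tested.

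**Figure D2:**
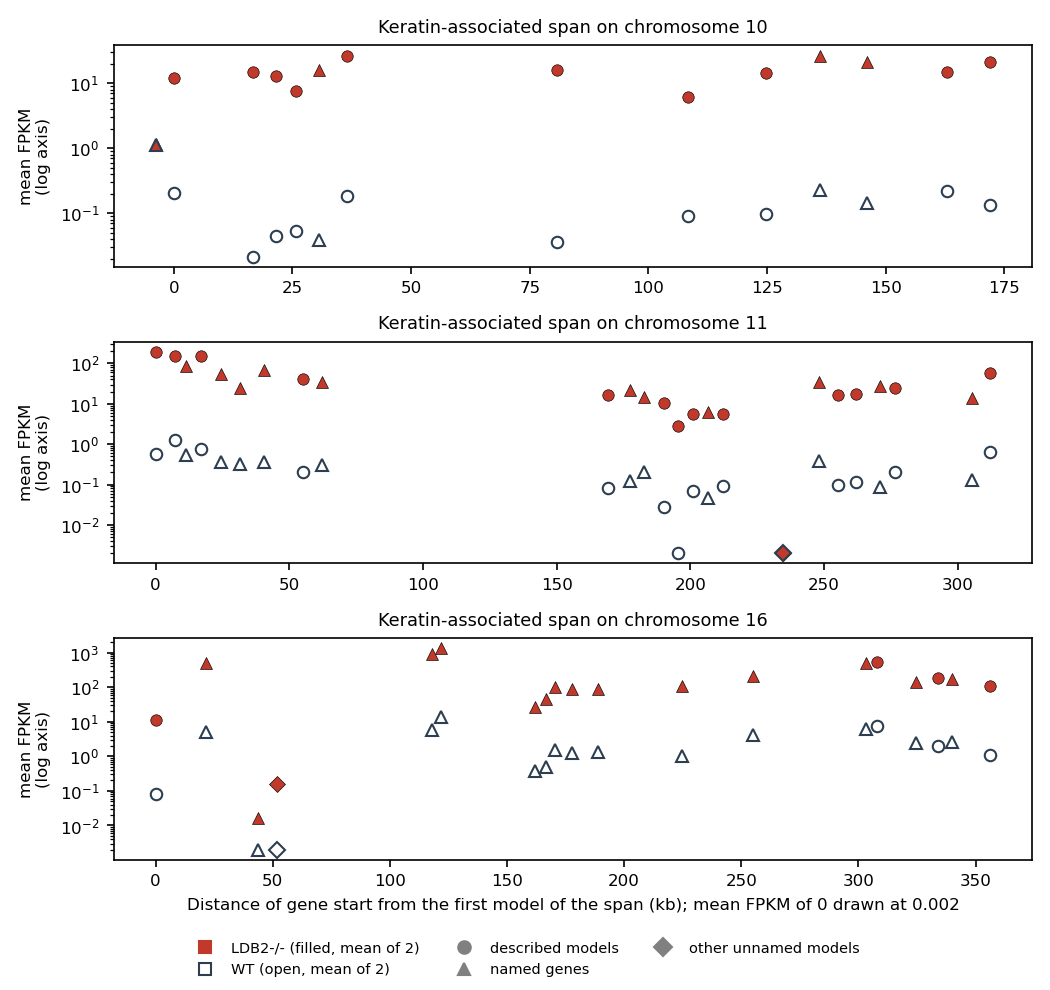
Mean FPKM of the 2 libraries of each genotype (vertical log axis, LDB2-/- filled, WT open) for the genes of the 3 keratin-associated spans, by distance in kb from the first model of the span (horizontal axis), with described models as circles, named genes as triangles and other unnamed models as diamonds. The LDB2-/- and WT means of the described models lie far apart, like those of the named keratin-associated genes among them, while those of Tspear, at the left of the chromosome 10 span, nearly coincide.

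The named keratin-associated genes of the spans were higher as well. All 11 named keratin-associated genes of the chromosome 11 span and all 3 of the chromosome 10 span were called higher at an edgeR adjusted p under 0.05. On chromosome 16, 13 of 14 could be tested and all 13 were called higher, Krtap13 being close to 0 in every library. Over all genes tested, 28.4% were called higher. The median log2 fold change of the other tested genes was 7.34, 7.23 and 6.50 in the spans on chromosomes 10, 11 and 16. Krtap14 had 899.6 and 889 FPKM in LDB2-/-, against 0.616 and 11.3 FPKM in WT, and Krtap4-7 had 72.1 and 66.0 FPKM in LDB2-/-, against 0.263 and 0.450 FPKM in WT. Of 29 unnamed models of the table in these spans, the rule took 27, and 2 were near 0 in all libraries: 2300003K06Rik, with 1 count in LDB2-/- library 1, and 2310034C09Rik, with 17 counts in the same library.

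Of all 54 named keratin-associated genes in the table, 48 were tested and 48 were called higher, with a median log2 fold change of 6.96, against -0.01 over all genes. Krtap12-1 had 16.3 and 15.9 FPKM in LDB2-/-, against 0 and 0.0769 FPKM in WT (log2 fold change 8.63, edgeR adjusted p = 0.000327), and Krtap9-1 had 29.3 and 24.7 FPKM in LDB2-/-, against 0.0806 and 0.0900 FPKM in WT (8.30, edgeR adjusted p = 7.68e-05). Of 45 named keratins tested, 33 were called higher, 10 lower and 2 not called, with a median of 5.38. Krt72, a keratin of the inner root sheath, had 1663 and 1722 FPKM in LDB2-/-, against 0.612 and 5.02 FPKM in WT. Genes of the epidermal differentiation complex, which build the cornified envelope, were split, with 16 of 39 called higher, 18 lower and 5 not called, and a median of -0.13. Of those called higher, Crnn had 653 and 623 FPKM in LDB2-/-, against 0.779 and 4.55 FPKM in WT. Of those called lower, Lce1l had 12.9 and 12.3 FPKM in LDB2-/-, against 96.1 and 85.8 FPKM in WT.

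The WT libraries were not alike in these genes. In 24 of the 27 span models, WT library 2 exceeded WT library 1, against 9 of 15 other higher models and 15 of 34 lower models. Span models with a near copy may share reads, so the 27 are not all separate instances. The 17 markers of hair shaft and inner root sheath, all of them called higher, summed to 53327 and 57606 FPKM in LDB2-/-, against 91.1 and 463 FPKM in WT libraries 1 and 2, and 0 of the 17 stood at 0 in both WT libraries. Melanocyte markers were called higher in 6 of 6, at 588 and 669.7 FPKM in LDB2-/-, against 15.3 and 26.1 FPKM in WT. Basal keratinocyte markers were called lower in 7 of 7 (4998 and 4820 FPKM in LDB2-/-, against 13898 and 12494 FPKM in WT), suprabasal markers in 6 of 7 (2025 and 1774 FPKM, against 19223 and 16526 FPKM) and sebocyte markers in 6 of 6 (224 and 185 FPKM, against 1112 and 1534 FPKM). Both genotypes thus held the keratinocyte markers of the labelled epidermis. Markers of other cells moved as well: red cell genes were called higher in 4 of 5 (6544 and 8551 FPKM, against 307 and 186 FPKM), skeletal muscle genes in 5 of 5 tested (39.6 and 36.1 FPKM, against 6.40 and 4.53 FPKM) and T cell genes lower in 3 of 3 (31.3 and 38.4 FPKM, against 109 and 119 FPKM). Endothelial and fibroblast genes were called higher in 5 of 5 tested each and mast cell genes in 2 of 2, Langerhans cell and macrophage genes were called higher in 3 and lower in 2, and 0 of 3 adipocyte genes were high enough to test. In whole tissue, fewer cells of a type and less RNA per cell cannot be told apart, and the part of these marker shifts in the differences of the unnamed models was not tested. Ldb2 had 0 and 0 counts in LDB2-/-, against 0 and 8 counts in WT, so it was too low to check the genotype. Total counts ran from 54095522 to 68436842 per library.

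**Figure D3:**
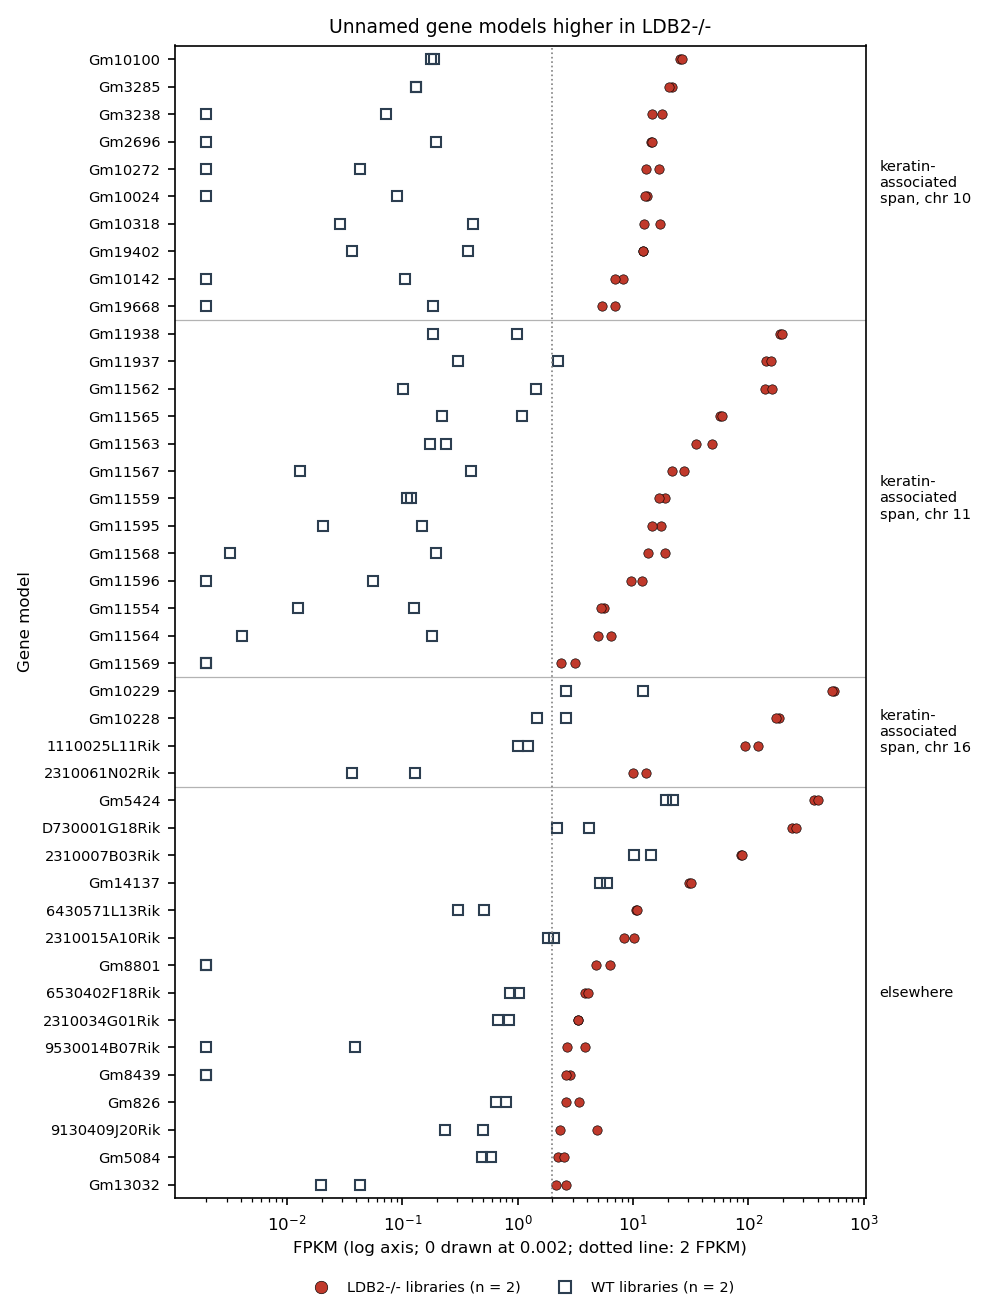
FPKM (log axis) in each of the 4 libraries for the 42 models higher in LDB2-/-, by span and then by level, with LDB2-/- libraries as filled circles, WT libraries as open squares and 0 drawn at the left edge. Both LDB2-/- libraries lie to the right of both WT libraries for every model, as the rule requires.

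Outside the spans 15 models were higher, and they were of mixed kinds: 6 protein coding, 7 long non-coding RNAs and 2 transcribed pseudogenes in RefSeq. Log2 fold changes ran between 2.36 and 6.89 for the 13 with a WT count, and the median of all 15 was 3.55, also with the others at their bounds (1.58 on the authors' normalized log2 values). Only 2 of the 15, Gm5424 and Gm14137, had a single exon.

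The most abundant was Gm5424 (chromosome 10, 62071022 to 62072571), a transcribed pseudogene. It had 374 and 405 FPKM in LDB2-/-, against 19.2 and 22.2 FPKM in WT, a log2 fold change of 4.56 (SE 0.16). Its transcript was 99.5% identical over its whole length to that of Ass1, which encodes argininosuccinate synthase, the enzyme that joins citrulline and aspartate on the way to arginine. Ass1 was listed at 1.41 and 1.20 FPKM in LDB2-/-, against 0.182 and 0.360 FPKM in WT (log2 fold change 2.56, edgeR adjusted p = 0.00483). With transcripts this alike, the deposited values do not tell reads of Gm5424 and Ass1 apart. The nearest named genes were Col13a1, a transmembrane collagen gene, called higher (4.26, edgeR adjusted p = 0.000725), and the tetraspanin gene Tspan15, called lower (-1.34, edgeR adjusted p = 0.00671).

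D730001G18Rik (chromosome 15, 74770908 to 74778859), named Ly6g6g in RefSeq, belongs to the LY6 family of small proteins that are mostly anchored to the cell surface. It had 241 and 260.1 FPKM in LDB2-/-, against 2.19 and 4.18 FPKM in WT, a log2 fold change of 6.62 (SE 0.35). A lower model, 2010109I03Rik, named Ly6m in RefSeq, lay in the same gene cluster and had 0.569 and 0.556 FPKM in LDB2-/-, against 9.47 and 9.62 FPKM in WT (-3.75, SE 0.22). The pair spans 110.8 kb. The genotypes were apart for each gene, as the rule requires, and in opposite directions. The named relatives beside them moved little: Ly6k was not called (0.38, edgeR adjusted p = 0.727), Ly6d, at 652 and 725 FPKM in LDB2-/- against 1159.7 and 978 FPKM in WT, was not called (-0.31, edgeR adjusted p = 0.154), and Ly6e was called lower (-0.57, edgeR adjusted p = 0.0145).

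2310007B03Rik (chromosome 1, 93151354 to 93160956) is named Mab21l4 in RefSeq, a gene whose human counterpart is known from squamous differentiation of keratinocytes. It had 86.0 and 87.9 FPKM in LDB2-/-, against 10.1 and 14.3 FPKM in WT (3.16, SE 0.19). Gm14137 (chromosome 2, 119174509 to 119177568) had 30.7 and 31.6 FPKM in LDB2-/-, against 5.20 and 6.01 FPKM in WT (2.79, SE 0.13). It overlaps Dnajc17, a co-chaperone gene that was also called higher (1.07, edgeR adjusted p = 0.00358), and whether counting used strand is not given in the sources used here.

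Among weaker models, some lay beside genes of hair formation that were also called higher. They were chosen for mention after their values were seen. Gm13032 (2.14 and 2.61 FPKM in LDB2-/-, against 0.0198 and 0.0427 FPKM in WT) overlaps Padi1 and lies next to Padi3, which encode enzymes that turn arginines of proteins such as trichohyalin into citrulline. Padi3 had 578 and 604 FPKM in LDB2-/-, against 0.697 and 3.85 FPKM in WT (8.35, edgeR adjusted p = 0.00104), and Padi1 had 82.1 and 77.7 FPKM in LDB2-/-, against 0.150 and 0.758 FPKM in WT (7.80, edgeR adjusted p = 0.000654). Since 53.7% of the Gm13032 transcript was identical to Padi1 sequence, its reads cannot be told apart from those of Padi1 there. The non-coding 9530014B07Rik (3.86 and 2.66 FPKM in LDB2-/-, against 0.0388 and 0 FPKM in WT) lay 163 kb from Msx2, a homeobox gene of the hair matrix, which had 147 and 156 FPKM in LDB2-/-, against 2.72 and 3.01 FPKM in WT (6.05, edgeR adjusted p = 6.49e-05).

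Models without a single count in WT were Gm8801 and Gm8439, besides Gm11569 of the spans. Gm8801, a transcribed pseudogene on chromosome 17, had 4.82 and 6.38 FPKM in LDB2-/-, at least 443-fold higher, and Gm8439 had 2.82 and 2.62 FPKM in LDB2-/-, at least 48.4-fold higher, both against 3 counts over the WT group. Gm8439 sits between Ctps, which encodes a CTP synthase, and Cited4, a transcriptional coactivator gene, both called higher (4.05, edgeR adjusted p = 7.14e-05, and 3.29, edgeR adjusted p = 0.00026). The remaining higher models, 6430571L13Rik, 2310015A10Rik, 6530402F18Rik, 2310034G01Rik, Gm826, 9130409J20Rik (Tmem238l in RefSeq) and Gm5084, had between 2.22 and 10.9 FPKM in LDB2-/-, against 0.234 to 2.07 FPKM in WT.

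The 34 lower models were spread over the genome. Of these, 19 were protein coding, 11 long non-coding RNAs and 4 transcribed pseudogenes, and 3 of 34 (8.82%) had a single exon. Exons were counted in the longest annotated transcript of each gene. Of these 3 models, 3110039I08Rik spans 238660 bases and has several RefSeq transcripts, so it need not be a single-exon gene. The median span of the lower models on the genome was 14048 bases, against 895 bases for the 42 higher models, of which 29 (69.0%) had a single exon. Without the span models, the other 15 higher models had a median span of 7952 bases, and 2 of 15 (13.3%) had a single exon. Among 383 other unnamed models that were tested and had exon annotation, 17.5% had a single exon. The lower models summed to 85.4 and 79.9 FPKM in LDB2-/-, against 985 and 803 FPKM in WT. Log2 fold changes ran between -5.51 and -1.45 for the 32 with a count in LDB2-/-, and the median of all 34 was -2.52, also with the others at their bounds (-1.16 on the authors' normalized log2 values). The lower WT library exceeded the higher LDB2-/- library 3.09-fold to 26.7-fold, with a median of 4.77-fold over the same 32.

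**Figure D4:**
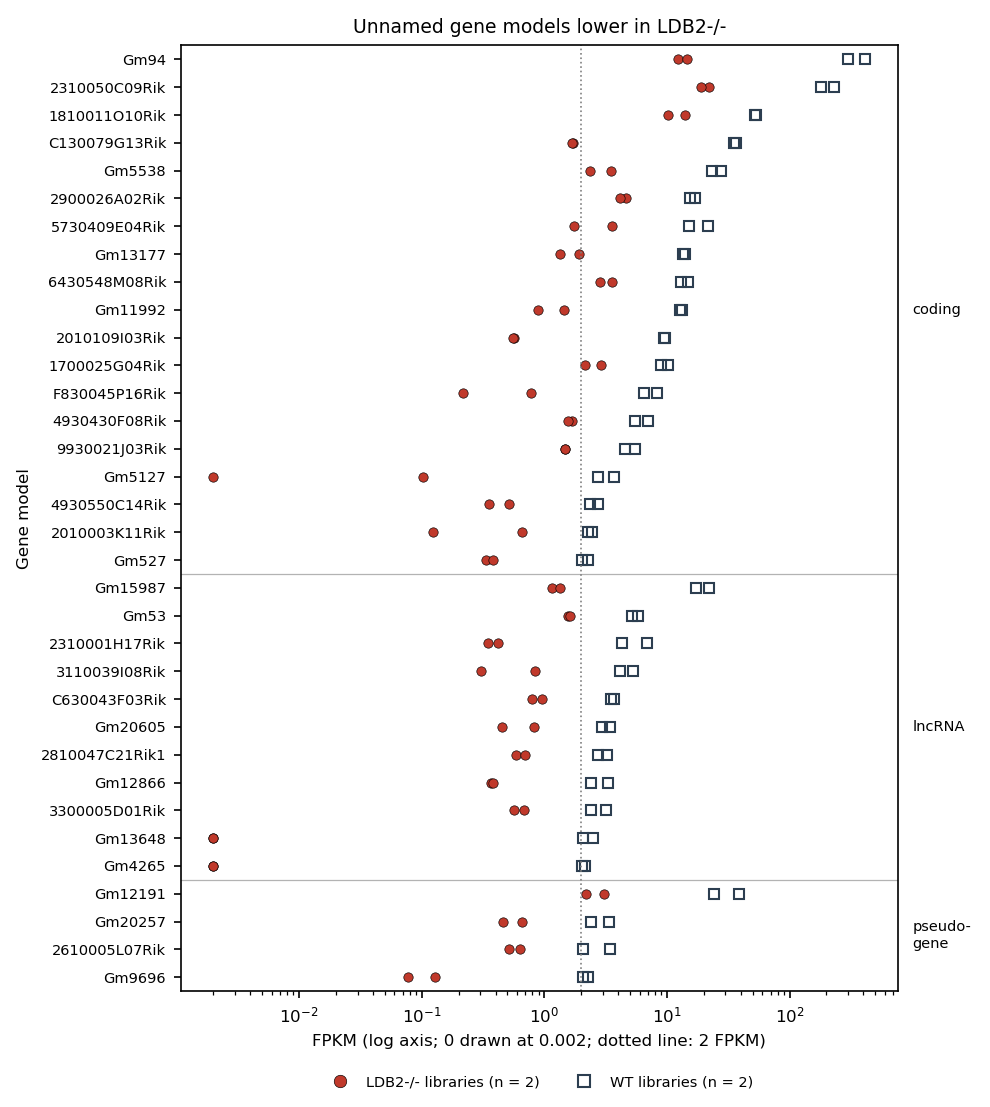
FPKM (log axis) in each of the 4 libraries for the 34 models lower in LDB2-/-, by RefSeq class and then by level, with LDB2-/- libraries as filled circles and WT libraries as open squares. Gm94 and 2310050C09Rik stand at the top with over 100 FPKM in both WT libraries, and most others lie under 10 FPKM.

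Gm94, a protein-coding model on chromosome 18 (43777196 to 43792878), made the largest part of that sum. It had 12.2 and 14.6 FPKM in LDB2-/-, against 416 and 299.5 FPKM in WT, a log2 fold change of -4.41 (SE 0.24). It lay 167 kb from Spink5, which encodes the epidermal protease inhibitor LEKTI and was called lower, with 13.4 and 9.72 FPKM in LDB2-/-, against 72.9 and 64.1 FPKM in WT (-2.25, edgeR adjusted p = 0.000308). 2310050C09Rik (chromosome 3, 92868359 to 92870205) was the only other lower model above 100 FPKM in both WT libraries. It had 22.1 and 19.1 FPKM in LDB2-/-, against 229 and 181 FPKM in WT (-3.00, SE 0.16). It lies among late cornified envelope genes, whose products reinforce the outer shell of dying keratinocytes. Of its neighbours, Lce1l was called lower, with 12.9 and 12.3 FPKM in LDB2-/-, against 96.1 and 85.8 FPKM in WT (-2.54, edgeR adjusted p = 0.00015). Lce3a, on the other side, was called higher at very low levels, 1.57 and 1.25 FPKM in LDB2-/-, against 0 and 0 FPKM in WT (edgeR adjusted p = 0.00204).

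C130079G13Rik (Aadacl2fm1 in RefSeq) is 1 of 3 lower models in a single span of chromosome 3, 59729786 to 59973594. These are relatives of arylacetamide deacetylase, a family of lipid and ester hydrolases. C130079G13Rik had 1.70 and 1.69 FPKM in LDB2-/-, against 35.0 and 36.6 FPKM in WT (-4.08, SE 0.12). Gm5538 (Aadacl2fm2) had 3.49 and 2.37 FPKM in LDB2-/-, against 23.2 and 27.4 FPKM in WT (-2.80, SE 0.23), and Gm9696, a transcribed pseudogene, had 0.128 and 0.0777 FPKM in LDB2-/-, against 2.26 and 2.06 FPKM in WT (-4.05, SE 0.36). In each of the 3 the genotypes do not overlap, which is how they were chosen. Aadacl2, the named relative next to the span, was called lower, with 0.832 and 0.545 FPKM in LDB2-/-, against 12.6 and 11.3 FPKM in WT (-3.80, edgeR adjusted p = 0.000276).

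A relative on chromosome 4, Gm13177 (144613707 to 144623398, Aadacl4 in RefSeq), was lower too. It had 1.90 and 1.34 FPKM in LDB2-/-, against 13.6 and 14.1 FPKM in WT (-2.78, SE 0.24). Its named neighbour Aadacl3 was called lower, with 0.474 and 0.365 FPKM in LDB2-/-, against 6.44 and 14.8 FPKM in WT (-4.33, edgeR adjusted p = 0.000856). Vps13d on the other side was not called (-0.25, edgeR adjusted p = 0.428).

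The promoter of 2310050C09Rik is shown because, unlike most lower models, it holds TATAAA near the start (44 bases before it), and that of C130079G13Rik as a lower model whose only TATAAA on the gene strand lies far from it (214 bases before the start). Both windows are from RefSeq on GRCm38.p6, 5′ to 3′ on the gene strand with TATAAA in capitals, at chr3:92870156-92870455 (minus strand) and chr3:59924964-59925263 (plus strand).
2310050C09Rik: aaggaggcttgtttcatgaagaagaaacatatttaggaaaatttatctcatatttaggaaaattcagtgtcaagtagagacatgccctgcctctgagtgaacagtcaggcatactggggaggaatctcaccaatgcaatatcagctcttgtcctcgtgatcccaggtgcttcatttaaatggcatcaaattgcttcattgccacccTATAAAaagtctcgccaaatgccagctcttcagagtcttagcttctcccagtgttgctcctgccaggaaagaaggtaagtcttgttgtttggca
C130079G13Rik: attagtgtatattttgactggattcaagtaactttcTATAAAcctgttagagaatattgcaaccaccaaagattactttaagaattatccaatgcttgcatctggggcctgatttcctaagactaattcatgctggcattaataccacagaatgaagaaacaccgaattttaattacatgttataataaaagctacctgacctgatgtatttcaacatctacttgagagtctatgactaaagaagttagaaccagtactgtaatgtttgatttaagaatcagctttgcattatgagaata

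On chromosome 6 (128952353 to 129238482) the non-coding models Gm15987 and 2310001H17Rik lay among genes of C-type lectins, surface proteins of which Clec2d is a ligand of an inhibitory receptor of natural killer cells. Gm15987 had 1.16 and 1.34 FPKM in LDB2-/-, against 22.0 and 17.4 FPKM in WT (-3.65, SE 0.26). Clec2d had 15.2 and 11.4 FPKM in LDB2-/-, against 102 and 87.2 FPKM in WT (-2.52, edgeR adjusted p = 0.000227), and BC064078 was also called lower (-2.58, edgeR adjusted p = 0.000316). Of the other tested genes of the span, Clec2g (-2.21, edgeR adjusted p = 0.125), Mir7649 (-2.49, edgeR adjusted p = 0.0669) and Clec2f (-2.89, edgeR adjusted p = 0.0696) were not called. Gm15987 overlaps Clec2g and Mir7649, so their reads may be shared. 2310001H17Rik had 0.423 and 0.349 FPKM in LDB2-/-, against 6.89 and 4.32 FPKM in WT.

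1810011O10Rik (chromosome 8, 24437172 to 24438946) is Tcim in RefSeq, a small regulator of transcription known from the Wnt pathway. It had 14.0 and 10.2 FPKM in LDB2-/-, against 52.2 and 52.8 FPKM in WT (-1.80, SE 0.16). Gm12191 (chromosome 11, 49678620 to 49679143), a transcribed pseudogene, had 2.17 and 3.09 FPKM in LDB2-/-, against 38.6 and 24.4 FPKM in WT (-3.25, SE 0.36). Its transcript was 99.7% identical over its whole length to that of Rpl30, a ribosomal protein gene at 969 and 1099.7 FPKM in LDB2-/-, against 1063 and 936 FPKM in WT, which was not called (0.38, edgeR adjusted p = 0.0895). The deposited values do not tell reads of Gm12191 and Rpl30 apart.

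The protein-coding models 2900026A02Rik, 5730409E04Rik, 6430548M08Rik and Gm11992 complete the most abundant lower models. 2900026A02Rik had 4.66 and 4.18 FPKM in LDB2-/-, against 15.5 and 17.0 FPKM in WT (-1.57, SE 0.11). 5730409E04Rik had 1.76 and 3.56 FPKM in LDB2-/-, against 21.5 and 15.2 FPKM in WT (-2.45, SE 0.39). The LDB2-/- libraries lay further apart for this model than for the others of this group. 6430548M08Rik had 2.85 and 3.58 FPKM in LDB2-/-, against 12.9 and 14.9 FPKM in WT (-1.92, SE 0.13), and Gm11992 had 1.45 and 0.881 FPKM in LDB2-/-, against 13.3 and 12.7 FPKM in WT (-3.17, SE 0.26). Beside Gm11992, Upp1, which encodes uridine phosphorylase, was called in the opposite direction, with 19.4 and 21.6 FPKM in LDB2-/-, against 0.408 and 0.958 FPKM in WT (5.23, edgeR adjusted p = 0.000393).

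Without a count in LDB2-/- were Gm13648, a non-coding model that overlaps the microRNA genes Mir200a, Mir200b and Mir429, and the non-coding Gm4265. Gm13648 had 2.51 and 2.05 FPKM in WT, at least 145-fold lower in LDB2-/- against 3 counts over the group, and Gm4265 had 2.04 and 2.15 FPKM in WT, at least 58.7-fold lower. Gm4265 lay 184 kb from Fgfr2, a receptor of fibroblast growth factors in epithelia, which was called lower (-1.10, edgeR adjusted p = 0.000709). Wdr11, 326 kb away on the other side, was not called (-0.10, edgeR adjusted p = 0.505). Another pair of opposite neighbours was 9930021J03Rik and Mlana. 9930021J03Rik had 1.48 and 1.46 FPKM in LDB2-/-, against 4.59 and 5.49 FPKM in WT, while the melanocyte gene Mlana, 5.96 kb away, had 161 and 206 FPKM in LDB2-/-, against 0.884 and 2.82 FPKM in WT (6.98, edgeR adjusted p = 0.000296). Ranbp6, nearer at 1.56 kb on the other side, was called lower like the model. It had 0.907 and 0.791 FPKM in LDB2-/-, against 3.47 and 3.61 FPKM in WT (-1.74, edgeR adjusted p = 0.00105).

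The other lower models were 1700025G04Rik, F830045P16Rik (synonym Sirpb3), 4930430F08Rik, Gm53, 3110039I08Rik (Mir100hg in RefSeq), C630043F03Rik, Gm20605, 2810047C21Rik1, Gm5127, Gm12866, 3300005D01Rik, Gm20257, 4930550C14Rik, 2010003K11Rik, 2610005L07Rik and Gm527. They had between 0 and 2.88 FPKM in LDB2-/-, against 2.03 to 10.1 FPKM in WT. Of these, Gm5127 overlaps Cysltr1, a leukotriene receptor gene that was called lower (-6.31, edgeR adjusted p = 0.00224), and 4930430F08Rik overlaps Cep290, also called lower (-1.02, edgeR adjusted p = 0.0108).

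The number of lower models depended on scaling. TMM factors were 0.920 and 0.872 in LDB2-/- and 1.105 and 1.128 in WT, and after FPKM were divided by them 42 of 42 higher models and 19 of 34 lower models still met the rule. This division raises every LDB2-/- value and lowers every WT value, so only lower models could drop out by it. Of the 15 that did, 10 missed the ratio, 4 the floor of 2 FPKM and 1 both. Without LDB2-/- library 1 the rule took 57 lower models. Among lower models, 14 of 34 had a ratio under 4, against 0 of 27 in the spans and 4 of 15 among the other higher models. Close to the ratio threshold, 9930021J03Rik (3.09) and 1700025G04Rik (3.12) were inside as lower, and Gm973 (2.95) and Gm13178 (2.94) were outside. Gm13178 had 22.8 and 15.9 FPKM in LDB2-/-, against 67.2 and 74.1 FPKM in WT, more than most lower models. As higher, Gm826 (3.30) and 6530402F18Rik (3.73) were inside, and 1110008P14Rik (2.54) and Gm4737 (2.19) were outside. At the floor of 2 FPKM, Gm13032 (2.14) and Gm5084 (2.22) were inside as higher and 4833415N18Rik (1.90) and Gm45618 (1.43) outside, and Gm527 (2.03) and Gm4265 (2.04) were inside as lower and 9230114K14Rik (1.72) and E330009J07Rik (1.70) outside.

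Named neighbours, chosen by position as the nearest on each side, were tested in their own right. Around the higher models 46 distinct neighbours were tested, of which 36 (78.3%) were called higher, 4 lower and 6 not called, with a median log2 fold change of 5.09. Over all genes tested 28.4% were called higher and 28.8% lower (edgeR adjusted p under 0.05). Leaving out the 3 spans, 16 of 25 neighbours (64.0%) were called higher, 4 lower and 5 not called, with a median of 1.07. Around the lower models 44 neighbours were tested, of which 19 (43.2%) were called lower, 5 (11.4%) higher and 20 not called, with a median of -0.58. Some neighbours overlap the model or share sequence with it, as described above for Padi1, Clec2g and others.

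**Figure D5:**
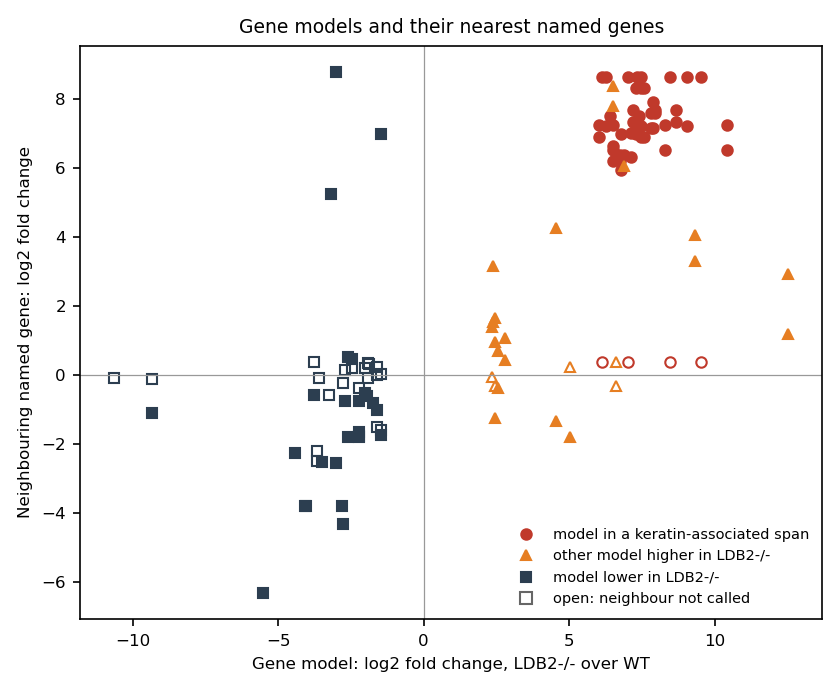
Log2 fold change of each model (horizontal axis) and of its nearest named genes that were tested (vertical axis), with open symbols for neighbours that were not called. Models with no count in a genotype are drawn at their fitted values, which are not bounds. Neighbours of models in the spans lie mostly above 5, neighbours of the other higher models have a median of 1.07, and those of the lower models have a median of -0.58.

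As a class defined by symbol alone, most unnamed models were too low to test. Of 1426, 473 were tested, of which 120 (25.4%) were called higher, 113 (23.9%) lower and 240 not called, against 28.4% and 28.8% of all genes, and their median log2 fold change was 0.01. With no filter on low values, 10.1% of the class were called higher and 10.4% lower, against 19.7% and 21.1% of all genes. Differences in these shares were not tested. When libraries were scaled by their totals alone, the median over all genes moved to -0.33 and the class had 84 higher and 157 lower calls. Outside the 3 spans the class had 93 of 446 (20.9%) called higher and 113 (25.3%) lower. Since the spans were drawn around models that met the rule as higher, the first share is lowered by that choice. Gm symbols were called higher in 45 of 132 tested and lower in 37, and Rik symbols higher in 75 of 341 and lower in 76. In the authors' deposited table, 171 unnamed models passed an adjusted p of 0.05 as higher (11.99%) and 179 as lower (12.6%), the 42 and 34 described here among them, against 4090 (23.1%) and 4182 (23.6%) of all genes.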

How the data were processed

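RNA of 4 mouse epidermis libraries, 2 LDB2-/- and 2 WT, was analysed from a single deposited table. Per the submitters' processing notes, bcl2fastq 1.8.4, HISAT2 2.1.0, StringTie 1.3.4d and the build mm10 were used; their settings are not given in the sources used here. The authors deposited whole-number read counts per gene, FPKM, log2 values normalized between libraries by a method that the headers do not name, and their own comparison as a signed fold change (a score) and an adjusted p-value, per the file headers. Total counts of 54095522 to 68436842 set the precision, and bounds against 3 counts cover counting error only.

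Members were found by the FPKM rule. Counts of 12400 genes with at least 1 FPKM in 2 or more libraries were fitted with edgeR 4.0.16 (R 4.3.3, TMM, quasi-likelihood, two-sided) by genotype alone, with p-values adjusted over all genes by Benjamini-Hochberg and called under 0.05. All 76 members passed that filter, which the rule makes certain. On simulated counts this test made more false calls than its threshold allows. Neighbours are the nearest genes of the table on each side that have another kind of symbol. Gene positions, biotypes and promoters came from RefSeq (GRCm38.p6), with 17685 of 17721 rows matched by gene ID and promoters for 57 of the 76. Exons and transcripts came from GENCODE release M21, with exons counted in the longest transcript of each gene. Near copies came from BLAST 2.17.0, at 95% identity or more over at least 50% of a transcript. The best-scoring match to another gene alone was judged, so the counts of near copies are minimums. Models under 500 kb apart were joined in a span. Per-library values were given for the 12 most abundant members of each direction, by the lower library of the higher genotype. Models nearest the thresholds were given by their ratio or level, and only some of them with per-library values. Other members with per-library values were picked outside these groups with their values known. Members, lists and markers were chosen with earlier results of these data known. Protein features were not analysed here. Alternatives were other floors and ratios, TMM-rescaled FPKM, DESeq2 1.42.0 and its size factors, library totals, no filter, limma 3.58.1 on log2(FPKM + 1), a replicate block and each library left out, and, added after seeing the data, crossed pairs and the authors' normalized log2 values. Python 3.11.15, pandas 2.3.3 and matplotlib 3.10.9 were used.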

Additional observations from a re-analysis of the deposited data

How the results depend on the processing

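The number of lower models by the rule was 34, and it became 17 with a floor of 5 FPKM, 64 with a ratio of at least 2, 17 with a ratio of at least 5 and 19 with FPKM rescaled by TMM factors; leaving out each library in turn gave 38 to 57, the highest without LDB2-/- library 1. The number of higher models was 42, with 42 to 45 when each library was left out, and 31 to 48 under the other floors and ratios. Of unnamed models, 113 were called lower by edgeR and 179 with limma on log2(FPKM + 1), where 94 were called higher against 120 by edgeR; the cause was not tested. Leaving out each library gave 92 to 113 higher and 97 to 132 lower calls in the class, 51 to 56 neighbours called in the direction of their model (55 with all libraries) and 5669 to 6702 genes called of all tested (7097 with all libraries); the genotype left with 1 library is then assumed to vary like the other. Over all genes, scaling by library totals alone gave 2248 higher and 5096 lower calls, and limma on FPKM 2393 and 5350, against 3521 and 3576.

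The replicate numbers share only a number: same-numbered libraries deviated with a correlation of -0.198. With the number as a replicate block, 6092 genes were called, with 102 unnamed models higher, 115 lower and 57 neighbours in the direction of their model. Crossed pairs as a block, chosen after seeing the data, gave 7269 genes, 123 unnamed models higher, 105 lower and 55 neighbours. The log2 fold changes of the members moved by more than the spread between replicates in 302 of 836 combinations of member and alternative; their direction is fixed by how the members were chosen. On the authors' normalized log2 values, an alternative chosen after seeing the data, all 76 moved and were smaller, with medians of 3.07 in the spans (7.34 by edgeR), 1.58 for the other higher models (3.55) and -1.16 for the lower models (-2.52). With 2 libraries per genotype and models as low as 2 FPKM, depth limits the fold changes of those listed at 0, which are bounds.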
